A study of Mus musculus with 6 samples.

Results

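The smooth muscle and contractile genes described here are 10 genes of the 25239 in the count table: Acta2, Actg2, Actc1, Tagln, Cnn1, Tpm1, Tpm2, Myl9, Des and Actn2. They were taken by gene symbol from the deposited table. All 10 were counted in all 6 libraries and all 10 passed the filter on low counts, which left 15256 genes for testing.

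Contraction in muscle and in non-muscle cells rests on actin filaments pulled by myosin. Smooth muscle cells, pericytes, myofibroblasts and myoepithelial cells share a set of filament genes, among them the smooth muscle actins, transgelin and calponin, many of which are controlled by serum response factor and its myocardin-family partners through a DNA element called the CArG box. In the thyroid it is the follicular epithelium that makes thyroid hormone.

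The libraries came from thyroid organoids grown from a mouse embryonic stem cell line of the G4 RosaLuc background. It carries a doxycycline-inducible TRE-Nkx2-1-Pax8 cassette and bTg-NES-BrafV637E-ERT2, a Braf fusion gene. In all groups, doxycycline for 5 days switched on Nkx2-1 and Pax8, 8-Br-cAMP was given for 2 weeks, and RNA was taken at day 31. The cAMP group, the control, received 8-Br-cAMP. The 4OHT group also received 1 µM 4-hydroxytamoxifen (4OHT) for 5 days, which activates the BrafV637E-ERT2 fusion protein. The PD+LY group received 4OHT and, for 3 days, 250 nM PD0325901 (a MEK inhibitor) with 5 µM LY204002 (a PI3K inhibitor). They had been on 4OHT for 4 days before the inhibitors were added. The inhibitors and the time on 4OHT therefore cannot be told apart in comparisons of PD+LY with 4OHT. All groups carry the fusion gene, which a bovine thyroglobulin promoter drives in thyroid cells of selected clones, and the protocol also yields cells that are not thyroid. Before treatment the follicles were enriched by straining, a step meant to remove single cells. Each group had 2 libraries. At least 3 wells were pooled per condition, and whether each library had its own pool is not stated. Total counts were 16060341 and 20533878 in cAMP, 14898409 and 18246077 in 4OHT, and 19508401 and 20637959 in PD+LY. Values are given as CPM, gene counts relative to the total of the library after scaling between libraries, with replicate 1 before replicate 2. Nothing in the labels says that the libraries came from separate differentiations, so the p-values measure only the spread between these libraries, which may be technical. With 2 libraries against 2, an exact two-sided permutation test cannot go below p = 0.3333, so the tests come from a model fitted across all genes.

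The comparison of 4OHT with cAMP asks what 4OHT, which activates the Braf fusion protein, changed. That of PD+LY with 4OHT asks what the inhibitors and any difference in time on 4OHT changed on top of it. That of PD+LY with cAMP asks how far inhibitor-treated organoids differed from the control. Comparisons that share a group are not independent of each other. No library here had 4OHT without the fusion gene, so effects of 4OHT itself and of activated Braf cannot be told apart. In short, by adjusted p 6 of the 10 genes were higher and 0 lower in PD+LY than in 4OHT, beside 10.7% and 12.1% of all tested genes. Relative to cAMP 8 were higher in PD+LY and 1, Actc1, was lower, beside 12.1% and 13.7%. Actn2 alone passed the test in 4OHT against cAMP, where it was higher, beside 4.04% of all genes higher and 4.35% lower. As these are bulk samples, more cells of a type and more RNA per cell cannot be told apart.

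Acta2 encodes smooth muscle alpha-actin and lies at chr19:34241090-34255590 on the minus strand (GRCm38). It was counted at 89.4 and 115 CPM in cAMP, 128 and 132 CPM in 4OHT, and 254 and 194 CPM in PD+LY. Both PD+LY libraries were above every other library, and the 4OHT libraries were above the cAMP libraries by a small margin. The log2 fold change of PD+LY against 4OHT was 0.79 ± 0.14 (SE, n = 2 per group, adjusted p = 0.00222), and that against cAMP was 1.13 ± 0.14 (adjusted p = 1.49e-04). The difference of 0.34 ± 0.14 between 4OHT and cAMP did not pass the test (adjusted p = 0.161), though it did in 4 of 12 alternative settings.

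Actg2 encodes smooth muscle gamma-actin, the actin of visceral smooth muscle, and lies at chr6:83512905-83536265 on the minus strand. Its values were 13 and 21.4 CPM in cAMP, 28 and 19.6 CPM in 4OHT, and 114 and 78 CPM in PD+LY. The PD+LY libraries stood well above the rest, whereas the ranges of cAMP and 4OHT overlapped. Of the 10 genes it had the largest fold change in PD+LY, with a log2 fold change of 2.02 ± 0.24 against 4OHT (adjusted p = 1.86e-04) and 2.47 ± 0.24 against cAMP (adjusted p = 3.10e-05). Between 4OHT and cAMP the log2 fold change was 0.45 ± 0.25 (adjusted p = 0.297), and it passed the test only in the fit without a filter.

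Actc1 encodes the alpha-actin of cardiac muscle and lies at chr2:114047282-114053548 on the minus strand. It was the lowest of the 10, at 1.95 and 2.44 CPM in cAMP, 1.07 and 0.933 CPM in 4OHT, and 0.611 and 0.681 CPM in PD+LY, from as few as 12 counts. Its order was opposite to that of the smooth muscle actins, with cAMP highest and PD+LY lowest and no overlap between groups. The log2 fold change of PD+LY against cAMP was -1.76 ± 0.43 (adjusted p = 0.0107). Without cAMP replicate 2 this call was lost (the log2 fold change was then -1.57). The steps from cAMP to 4OHT (-1.14 ± 0.42, adjusted p = 0.12) and from 4OHT to PD+LY (-0.62 ± 0.47, adjusted p = 0.366) did not pass the test. The actin genes are alike in their coding parts, so shared reads are a concern, but only 7 of 2146 distinct runs of 50 bases in Acta2 transcripts occurred in a transcript of another gene, and none of those of Actg2 or Actc1 did.

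Tagln encodes transgelin, an actin-bundling protein of smooth muscle, and lies at chr9:45929619-45936058 on the minus strand. It was counted at 52.4 and 79.3 CPM in cAMP, 105 and 88.9 CPM in 4OHT, and 183 and 130 CPM in PD+LY. The groups formed 3 separate steps, though the replicates of PD+LY were far apart. The log2 fold change of PD+LY was 0.69 ± 0.19 against 4OHT (adjusted p = 0.0197) and 1.24 ± 0.19 against cAMP (adjusted p = 5.94e-04), and that of 4OHT against cAMP was 0.55 ± 0.19 (adjusted p = 0.0993). The first of these calls was lost with DESeq2 (log2 fold change 0.69), without PD+LY replicate 1 (0.43) and without either 4OHT replicate (0.82 and 0.59). Tagln exons overlap those of Pcsk7 and Gm48529 on the opposite strand, and counting was done without strand, so reads from there cannot be assigned with certainty. Of its 1983 distinct runs of 50 bases, 58.3% also occurred in transcripts of these genes. Gm48529, which had no row in the count table, shared 55.4%, and Pcsk7 shared 2.98%. The level of Tagln per kilobase carries that limit. The difference between 4OHT and cAMP passed the test in 6 of 12 alternative settings, with log2 fold changes from 0.28 to 0.89 over all of them.

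Cnn1 encodes calponin, which binds actin and restrains myosin, and lies at chr9:22099216-22109630 on the plus strand. Its values were 9.5 and 12.2 CPM in cAMP, 10.3 and 8.39 CPM in 4OHT, and 27 and 20.8 CPM in PD+LY. The cAMP and 4OHT libraries overlapped and both PD+LY libraries were higher. In PD+LY the log2 fold change was 1.36 ± 0.20 against 4OHT (adjusted p = 6.23e-04) and 1.13 ± 0.19 against cAMP (adjusted p = 0.0012).

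Myl9 encodes the regulatory myosin light chain, whose phosphorylation starts smooth muscle contraction, and lies at chr2:156775420-156781658 on the plus strand. It was counted at 24.7 and 32.9 CPM in cAMP, 27.1 and 25.3 CPM in 4OHT, and 51.2 and 35.5 CPM in PD+LY. PD+LY was highest, but its replicate 2 was close to the upper cAMP library. The log2 fold change was 0.73 ± 0.18 against 4OHT (adjusted p = 0.0145) and 0.58 ± 0.18 against cAMP (adjusted p = 0.0337). Without PD+LY replicate 1 these values were 0.44 and 0.30 and neither passed the test, and neither passed it without either 4OHT replicate, although the log2 fold change was then 0.78 and 0.68 against 4OHT and 0.59 in both cases against cAMP. Without cAMP replicate 1 the call against cAMP was also lost, at 0.40, as it was with only the 2 groups compared (0.59).

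Des encodes desmin, the intermediate filament protein of muscle cells, and lies at chr1:75360329-75368579 on the plus strand. Its values were 27.2 and 34.7 CPM in cAMP, 34.6 and 39.7 CPM in 4OHT, and 81.5 and 72.3 CPM in PD+LY. The cAMP and 4OHT libraries overlapped, and PD+LY was higher than both with close replicates. For PD+LY the log2 fold change was 1.05 ± 0.14 against 4OHT (adjusted p = 3.71e-04) and 1.31 ± 0.14 against cAMP (adjusted p = 5.24e-05). The change against 4OHT fell short of 2-fold without 4OHT replicate 1 and without PD+LY replicate 1, with a lowest log2 fold change of 0.96, and passed the test in all 12 settings. Of its distinct runs of 50 bases 4.61% also occurred in Gm15179, which had 0 counts in all libraries. Des, Myh11 and Col3a1 were among the genes that the study itself selected on these libraries, so their direction is not independent evidence.

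Tpm1 and Tpm2 encode tropomyosins, which lie along actin filaments and also have non-muscle isoforms. Tpm1 was counted at 257 and 309 CPM in cAMP, 254 and 286 CPM in 4OHT, and 266 and 240 CPM in PD+LY. Tpm2 was counted at 37.2 and 43.9 CPM in cAMP, 45.8 and 51.8 CPM in 4OHT, and 55.4 and 50.3 CPM in PD+LY. All 3 groups overlapped for Tpm1, which passed no test, with a log2 fold change of -0.09 ± 0.11 in PD+LY against 4OHT (adjusted p = 0.578). For Tpm2 the cAMP libraries were lowest and the other groups overlapped, and in PD+LY the difference from cAMP was 0.38 ± 0.13 on the log2 scale (adjusted p = 0.0459). That call was lost in 7 of 12 alternative settings, with log2 fold changes of 0.27 to 0.52 over all 12. In 4 of the 7 (at least 10 counts in every library, only the 2 groups compared, and without either 4OHT replicate) the value was 0.37 to 0.39, so the call was lost with little change in size.

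Actn2 encodes the alpha-actinin of striated muscle, which anchors actin at the Z-disc, and lies at chr13:12269426-12340760 on the minus strand. It was counted at 12.6 and 11.2 CPM in cAMP, 33.4 and 31.9 CPM in 4OHT, and 32.4 and 35.1 CPM in PD+LY. The 4OHT and PD+LY libraries overlapped and all 4 were above the cAMP libraries. The log2 fold change of 4OHT against cAMP was 1.46 ± 0.14 (adjusted p = 1.16e-04) and that of PD+LY against cAMP was 1.51 ± 0.14 (adjusted p = 1.69e-05), while PD+LY against 4OHT gave 0.05 ± 0.13 (adjusted p = 0.82). Its pattern thus differed from that of the smooth muscle actins, which were highest in PD+LY.

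**Figure D1:**
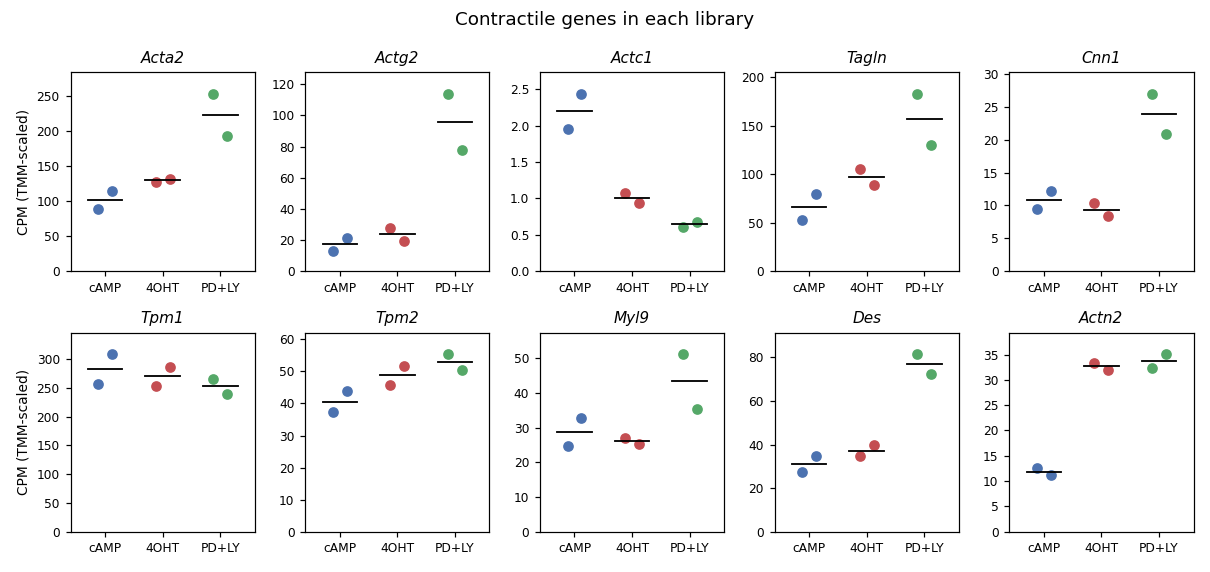
Level of each of the 10 genes in each library, in CPM on a linear axis that starts at 0, by group (cAMP, 4OHT, PD+LY). Points are libraries, replicate 1 left of replicate 2, and black lines are group means; Actg2 reached 114 and 78 CPM in PD+LY and at most 28 CPM elsewhere, and Actn2 was at 31.9 CPM or more in 4OHT and PD+LY and at most 12.6 CPM in cAMP.

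Counted against all tested genes, Actn2 was the 1 of 10 genes that was at least 2-fold higher in 4OHT than in cAMP with an adjusted p under 0.05, where 1.17% of all genes were, and 0 of 10 were that much lower, where 1.51% of all genes were. By adjusted p alone the counts were again 1 higher and 0 lower, against 4.04% and 4.35% of all genes. In PD+LY against 4OHT, 3 of 10 (Actg2, Cnn1 and Des) were at least 2-fold higher, against 2.35% of all genes, and 0 were lower, against 4.90%. By adjusted p alone 6 of 10 were higher, the same 3 with Acta2, Tagln and Myl9, against 10.7% of all genes, and 0 were lower, against 12.1%. In PD+LY against cAMP, 6 of 10 (Acta2, Actg2, Tagln, Cnn1, Des and Actn2) were at least 2-fold higher, against 3.00% of all genes, and Actc1 was lower, against 6.24%. By adjusted p alone Tpm2 and Myl9 joined them, which made 8 of 10 higher, against 12.1%, and 1 lower, against 13.7%. Without PD+LY replicate 1, and likewise without cAMP replicate 1, 4 in place of 7 genes were called in PD+LY against cAMP with the 2-fold rule, since Acta2, Tagln and Cnn1 fell just short of 2-fold. The median log2 fold change of the 10 genes was 0.26 for 4OHT against cAMP, beside 0.00 over all tested genes. For PD+LY it was 0.71 relative to 4OHT and 1.13 relative to cAMP, beside 0.01 and 0.00 over all tested genes.

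**Figure D2:**
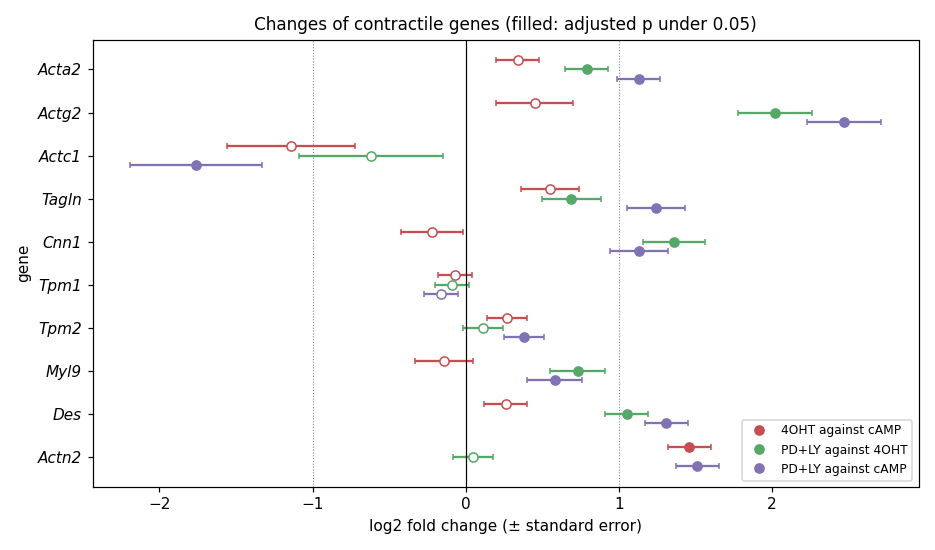
Log2 fold change of each of the 10 genes in the 3 comparisons, with the standard error as bars, from the model fitted to all 6 libraries. Filled points have an adjusted p under 0.05, dotted lines mark a 2-fold change, and Actg2 lies farthest to the right at 2.47 in PD+LY against cAMP while Actc1 lies farthest to the left at -1.76.

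Per kilobase of exon, which allows levels of different genes to be compared, the control was led by Acta2 at 46.6 CPM per kilobase and Tpm1 at 43.7, whose libraries overlapped. Tagln followed at 33.1, Myl9 at 24.8, Tpm2 at 13.9, Actg2 at 11, Des at 8.24, Cnn1 at 3.96, Actn2 at 3.14 and Actc1 at 1.36 CPM per kilobase. The control libraries of Tagln also overlapped those of Tpm1 and Myl9, and those of Actg2 overlapped Tpm2 and Des. In PD+LY, Acta2 was at 102, Tagln at 78.7 and Actg2 at 61.7 CPM per kilobase, ahead of Tpm1 at 39 and Myl9 at 37.3, whose libraries overlapped. The PD+LY libraries of Tagln also overlapped those of Acta2 and of Actg2. With the longest transcript of each gene, Tpm1 led the control at 98 CPM per kilobase, ahead of Acta2 at 50.2. In PD+LY, Tpm1 at 87.6 CPM per kilobase was then ahead of Actg2 at 72. The place of Tpm1 depended on the length used, since over all libraries it was at 41.4 CPM per kilobase with all its exons and at 93 with its longest transcript, where Acta2 was at 69.3 and 74.7. The cytoplasmic actins were far more abundant and passed no test: Actb was at 457 and Actg1 at 332 CPM per kilobase in PD+LY, with log2 fold changes of -0.02 ± 0.09 and -0.05 ± 0.12 against 4OHT (adjusted p = 0.902 and 0.79).

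The summed level of the 10 genes was 525 and 663 CPM in cAMP, 667 and 684 CPM in 4OHT, and 1065 and 857 CPM in PD+LY. In 7 of the 10 genes (Acta2, Actg2, Tagln, Cnn1, Tpm2, Myl9 and Des) PD+LY replicate 1 was the highest library of all 6. That library also had the highest Tg, the thyroglobulin gene, at 1870 CPM beside 907 CPM in PD+LY replicate 2, and the part of this difference between replicates in the results was not tested.

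Counts in gene lists are by adjusted p, and counts without 1 library are to be read against the shares over all tested genes in that same setting, which moved as well. For PD+LY against 4OHT, 4.18% of all genes were higher and 6.34% lower without 4OHT replicate 1, 3.02% and 4.59% without 4OHT replicate 2, 10.1% and 11% without PD+LY replicate 1, 13.3% and 13.3% without PD+LY replicate 2, and 9.63% and 10.9% without cAMP replicate 1. For 4OHT against cAMP the shares were 0.707% and 0.668% without 4OHT replicate 1, 0.864% and 1.17% without 4OHT replicate 2, 1.29% and 1.69% without cAMP replicate 1, 1.83% and 2.01% without cAMP replicate 2, 7.09% and 7.77% without PD+LY replicate 1, and 6.92% and 7.76% without PD+LY replicate 2. For PD+LY against cAMP they were 6.77% and 9.04% without cAMP replicate 1, 6.94% and 8.18% without cAMP replicate 2, 9.41% and 10.9% without 4OHT replicate 1, 9.46% and 10.9% without 4OHT replicate 2, 13% and 14.5% without PD+LY replicate 1, and 11.5% and 13% without PD+LY replicate 2. The shares thus fell most where the comparison itself lost a library of cAMP or 4OHT. Both comparisons of PD+LY also had smaller falls without a library of the third group, and without 1 of the PD+LY libraries. In 4OHT against cAMP the shares rose without either PD+LY library.

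Among 25 other smooth muscle genes, 9 were higher and 2 lower in PD+LY than in 4OHT by adjusted p, beside 10.7% and 12.1% of all genes, and 9 were higher and 3 lower than in cAMP, beside 12.1% and 13.7%. Their median log2 fold changes were 0.22 and 0.23, beside 0.01 and 0.00 over all tested genes. Against 4OHT the counts were 5 higher and 1 lower without 4OHT replicate 1, and 2 higher and 1 lower without 4OHT replicate 2. In 4OHT against cAMP, 0 were higher and 2 lower, beside 4.04% and 4.35% of all genes. These became 0 and 0 without cAMP replicate 1 or either 4OHT replicate, 0 and 1 without cAMP replicate 2, and 1 and 4 without either PD+LY replicate. Myh11, the smooth muscle myosin heavy chain and one of the most specific genes of the mature cell, was counted at 7.23 and 8.09 CPM in cAMP, 8.41 and 7.52 CPM in 4OHT, and 23.5 and 14.2 CPM in PD+LY. Both PD+LY libraries were above the rest, with a log2 fold change of 1.25 ± 0.23 against 4OHT (adjusted p = 0.00289). Mustn1 (2.24 ± 0.44, adjusted p = 0.00419), Synpo2 (1.31 ± 0.34, adjusted p = 0.0173) and the actin nucleator Lmod1 (1.02 ± 0.24, adjusted p = 0.0111) were also higher than in 4OHT. In 4OHT, Mustn1 had only 11 and 12 counts. Lmod1 and Fhl1 of this list also belong to a thyroid differentiation score that the study used, and which cells expressed them was not tested. Aoc3 was lower (-1.50 ± 0.25, adjusted p = 0.00164), and Pdlim3 was lower than in cAMP (-1.37 ± 0.20, adjusted p = 3.97e-04).

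Of 15 transcription factor genes, 14 were tested, and in PD+LY against 4OHT 2 (Klf4 and Mrtfb) were higher by adjusted p and 0 lower, beside 10.7% and 12.1% of all genes, with a median log2 fold change of 0.11. The first count was 0 without 4OHT replicate 2 and 1 without 4OHT replicate 1 or cAMP replicate 1. Against cAMP 3 (Klf4, Mrtfa and Mef2d) were higher in PD+LY and 3 (Elk4, Foxo4 and Mef2c) lower, beside 12.1% and 13.7% of all genes, with a median of 0.03. Here 1 gene was higher without either cAMP library or either 4OHT library, 0 were lower without cAMP replicate 1, and 1 was lower without cAMP replicate 2 or PD+LY replicate 2. Srf, the serum response factor, was counted at 63.5 and 74.1 CPM in cAMP, 69.7 and 69 CPM in 4OHT, and 58.2 and 68.6 CPM in PD+LY. Both PD+LY libraries were below both 4OHT libraries, the cAMP range spanned 4OHT, and no test passed (-0.13 ± 0.12 for PD+LY against 4OHT, adjusted p = 0.47). Mrtfb, a myocardin-related partner of serum response factor, was at 35 and 30.8 CPM in cAMP, 25.8 and 23 CPM in 4OHT, and 40.5 and 37 CPM in PD+LY. Its 4OHT libraries were lowest, and the log2 fold change of PD+LY was 0.67 ± 0.13 against 4OHT (adjusted p = 0.004). Mrtfa, its close relative, was higher in PD+LY than in cAMP by 0.44 ± 0.14 on the log2 scale (adjusted p = 0.0389). Klf4, known to repress smooth muscle genes, was at 89.1 and 88.2 CPM in cAMP, 120 and 119 CPM in 4OHT, and 155 and 143 CPM in PD+LY. Klf4 was higher in PD+LY than in cAMP by a log2 fold change of 0.75 ± 0.09 (adjusted p = 1.34e-04), in the same direction as the smooth muscle actins. Which cells expressed Klf4, and whether it acted on the contractile genes, was not tested. Myocd, the myocardin gene, had 2 and 1 counts in cAMP, 6 and 0 in 4OHT, and 8 and 14 in PD+LY, and was removed by the filter, so no test was made. Mef2c was lower in PD+LY than in cAMP (-2.11 ± 0.61, adjusted p = 0.0237).

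Of 17 cytoplasmic relatives of the contractile genes, 2 were higher and 5 lower in PD+LY than in 4OHT, beside 10.7% and 12.1% of all genes, with a median log2 fold change of -0.05 and 0 changed by 2-fold. Without 4OHT replicate 2 these were 0 and 1, and without 4OHT replicate 1 they were 0 and 5. Of 10 genes of transforming growth factor beta signalling, 3 were higher and 1 lower in the same comparison, with a median of 0.02, and the lower ones became 0 without 4OHT replicate 2 and 4 without PD+LY replicate 1. Of these genes Tgfb3 was higher in PD+LY than in cAMP (1.10 ± 0.16, adjusted p = 3.57e-04).

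Of 30 striated muscle genes, 17 were tested, 12 more had too few counts and Tcap had 0 counts in all libraries. Their summed level was 77.2 and 82.7 CPM in cAMP, 67.4 and 75 CPM in 4OHT, and 52.1 and 58 CPM in PD+LY, with Actn3 the most abundant per kilobase in each group, though close to Tnnt1 in cAMP (5.91 and 5.69 CPM). In PD+LY against cAMP 0 were higher and 5 lower (Ldb3, Myl7, Tnnt1, Acta1 and Myh6), beside 12.1% and 13.7% of all genes, the direction of Actc1 and the opposite of Actn2. Without any 1 of the cAMP and 4OHT libraries 3 were lower, while 2 were lower without PD+LY replicate 1, and 1 was higher and 6 lower without PD+LY replicate 2. The defining skeletal and cardiac genes Myod1, Myog, Nkx2-5 and Nppa were among those with too few counts to test.

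Marker genes of other cell types that make contractile proteins were set beside these values. The 13 fibroblast markers summed to 1194 and 1302 CPM in cAMP, 2244 and 2358 CPM in 4OHT, and 4870 and 4128 CPM in PD+LY, with Col1a1 the most abundant per kilobase and none at 0. Most of that level came from the collagen genes Col1a1, Col1a2 and Col3a1, which summed to 895 and 1017 CPM in cAMP, 1922 and 2014 CPM in 4OHT, and 4264 and 3714 CPM in PD+LY. The other 10 markers summed to 298 and 286 CPM in cAMP, 322 and 344 in 4OHT, and 605 and 413 in PD+LY. Both PD+LY libraries were highest there. Of these markers, the 9 without Postn summed to 270 and 248 CPM in cAMP, 272 and 294 in 4OHT, and 374 and 260 in PD+LY. For those 9, PD+LY overlapped both other groups. In 4OHT against cAMP 4 were higher (the 3 collagen genes and Dcn) and 0 lower, beside 4.04% and 4.35% of all genes. Between PD+LY and 4OHT 5 were higher in PD+LY (the 3 collagen genes, Dpt and Postn) and 2 lower (Thy1 and Twist1), beside 10.7% and 12.1%, while Dcn, Pdgfra, Lum, Fap, Prrx1 and Twist2 did not pass the test. The 2 lower became 0 without either 4OHT replicate and 1 without PD+LY replicate 2. Col3a1 was higher by 1.46 ± 0.09 on the log2 scale (adjusted p = 2.92e-06) and Dpt by 3.58 ± 0.28 (adjusted p = 1.11e-05), and Postn, an extracellular matrix protein of activated fibroblasts, rose by a log2 fold change of 1.95 ± 0.18 (adjusted p = 3.15e-05). The 8 pericyte markers summed to 200 and 200 CPM in cAMP, 184 and 190 CPM in 4OHT, and 130 and 117 CPM in PD+LY, with Mcam the most abundant per kilobase, and 1 was higher and 5 lower in PD+LY than in 4OHT, beside 10.7% and 12.1% of all genes. Without 4OHT replicate 1 these were 0 and 2, without 4OHT replicate 2 they were 0 and 3, and without PD+LY replicate 1 they were 0 and 4. Pdgfrb, the pericyte receptor for platelet-derived growth factor, fell by 1.26 ± 0.16 on the log2 scale (adjusted p = 2.81e-04). Anpep, Abcc9, Mcam and Notch3 were also lower. Cspg4 was higher (1.40 ± 0.39, adjusted p = 0.0237), and Rgs5 and Kcnj8 did not pass the test. The part of any of these cell types in the results was not tested.

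The 9 endothelial markers summed to 228 and 227 CPM in cAMP, 246 and 249 CPM in 4OHT, and 214 and 219 CPM in PD+LY, with Pecam1 the most abundant per kilobase. Pecam1 made up most of that sum, at 135 and 128 CPM in cAMP, 171 and 168 CPM in 4OHT, and 148 and 155 CPM in PD+LY, and the other 8 summed to 93.3 and 98.9 CPM, 75.5 and 81.3 CPM, and 66.1 and 63.7 CPM. Of the 8 that were tested, 1 (Pecam1) was higher and 4 lower in 4OHT than in cAMP, beside 4.04% and 4.35% of all genes, with a median log2 fold change of -1.07. The 4 were Tie1 (-3.46 ± 0.53, adjusted p = 0.00249), Kdr (-2.31 ± 0.29, adjusted p = 6.88e-04), Cldn5 (-1.98 ± 0.52, adjusted p = 0.0373) and Cdh5 (-1.47 ± 0.24, adjusted p = 0.00381), with as few as 4 counts of Tie1 and 5 of Cldn5 in 4OHT. These were 0 higher and 2 lower without 4OHT replicate 1, and 0 higher and 3 lower without 4OHT replicate 2 or either cAMP library. Esam alone was lower in PD+LY than in 4OHT (-1.05 ± 0.24, adjusted p = 0.00833; 0 lower without 4OHT replicate 2) and 0 were higher. Relative to cAMP, 0 were higher and 5 lower in PD+LY (Esam and the same 4), beside 12.1% and 13.7% of all genes, with a median of -0.92, and 3 were lower without cAMP replicate 1. The 5 myoepithelial and basal markers summed to 35.8 and 39.1 CPM in cAMP, 38.2 and 49.3 CPM in 4OHT, and 20 and 27.3 CPM in PD+LY, with 0 higher and 3 lower in PD+LY than in 4OHT (1 lower without 4OHT replicate 2). Per kilobase Krt5 and Krt17 led with overlapping libraries in cAMP, both at 6.77 CPM, and in 4OHT, at 7.64 and 8.37 CPM, while in PD+LY Krt14 was at 6.17 and Krt17 at 4.77 CPM, also overlapping. The 9 epithelial markers summed to 1192 and 1293 CPM in cAMP, 875 and 985 CPM in 4OHT, and 810 and 854 CPM in PD+LY, with 1 (Cdh1) higher and 7 lower in PD+LY than in 4OHT. Without Cdh1 the other 8 summed to 803 and 911 CPM in cAMP, 606 and 694 CPM in 4OHT, and 376 and 399 CPM in PD+LY. Per kilobase Krt18 led in cAMP at 136 and in 4OHT at 116 CPM, and Cdh1 led in PD+LY at 97.2 CPM, ahead of Krt18 at 62.4. The 10 thyroid follicular markers, led by Tg, summed to 1650 and 1105 CPM in cAMP, 571 and 762 CPM in 4OHT, and 1977 and 986 CPM in PD+LY, with 5 higher and 0 lower in PD+LY than in 4OHT. Of these 3 were higher without 4OHT replicate 1, and 3 were higher and 1 lower without PD+LY replicate 1. In the same comparison 10.7% of all genes were higher and 12.1% lower. Thyroid markers were thus present in all libraries, and their part in the changes of the contractile genes was not tested.

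The genes most like Acta2 across the 6 libraries, among 9840 other genes with a mean of at least 10 CPM, were Dync1li2 (Pearson r of log2 CPM 0.9964), Tgfb3 (0.9932), Emilin1 (0.9918), Postn (0.9876) and Ift81 (0.9869). Those most like Actc1 were Limd2 (0.9971), Gnpat (0.9939), Arrb1 (0.9931), Asap3 (0.9922) and Grb7 (0.9916). With 3 groups of 2 libraries, such values describe the shared order of the groups.

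RefSeq promoters (250 bases before to 50 after the start, GRCm38.p6) were found for 8 of the 10 genes. The promoter set held no entry for Tagln or Actg2, so the counts that follow leave them out. The CArG box, searched by name on both strands, which its symmetry makes equal, was present in 2 of the 8, beside 1.63% of all 32851 promoters of that length. With 1 mismatch allowed in its A/T run it was present in 3 of 8, beside 9.98% of all promoters. The 3 promoters are shown because their genes moved in opposite directions: Acta2 and Myl9 were higher in PD+LY than in cAMP and Actc1 was lower. Capitals mark each box with at most 1 mismatch, of which there were 2 in Acta2 (chr19:34255324-34255623, minus strand), 2 in Myl9 (chr2:156775214-156775513, plus strand) and 4 in Actc1 (chr2:114052826-114053125, minus strand). Of these, 0 in Acta2, 1 in Myl9 and 1 in Actc1 had no mismatch. A match is a description of the letters and not of a bound factor.
Acta2: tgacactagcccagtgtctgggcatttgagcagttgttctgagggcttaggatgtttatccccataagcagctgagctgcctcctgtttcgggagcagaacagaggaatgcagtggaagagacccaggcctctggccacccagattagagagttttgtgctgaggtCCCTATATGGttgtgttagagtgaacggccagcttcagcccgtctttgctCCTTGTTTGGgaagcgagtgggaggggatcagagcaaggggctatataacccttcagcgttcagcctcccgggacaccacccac
Myl9: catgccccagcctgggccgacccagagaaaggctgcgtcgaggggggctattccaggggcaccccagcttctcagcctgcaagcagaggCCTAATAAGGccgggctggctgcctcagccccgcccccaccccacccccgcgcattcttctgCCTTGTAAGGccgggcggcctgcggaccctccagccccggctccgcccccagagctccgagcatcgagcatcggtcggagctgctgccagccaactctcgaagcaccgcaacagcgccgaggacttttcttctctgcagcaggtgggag
Actc1: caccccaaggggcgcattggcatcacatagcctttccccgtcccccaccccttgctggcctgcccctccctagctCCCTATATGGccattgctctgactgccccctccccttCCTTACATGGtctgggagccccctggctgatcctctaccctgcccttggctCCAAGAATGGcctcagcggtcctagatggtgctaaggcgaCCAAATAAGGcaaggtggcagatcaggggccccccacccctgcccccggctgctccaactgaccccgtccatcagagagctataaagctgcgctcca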

How the data were processed

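RNA of 6 organoid libraries was sequenced with a stranded poly(A) kit. The authors aligned reads to mm10 with HISAT2 and counted them per gene with HTSeq without strand, and deposited the raw counts used here. The analysis used edgeR 4.0.16 (R 4.3.3). Genes were filtered (minimum count 10, minimum total 15), scaled by TMM, and fitted with a quasi-likelihood model of 3 groups on all 6 libraries. Adjusted p-values are Benjamini-Hochberg over 15256 genes. A gene was called at adjusted p under 0.05, with and without a 2-fold change. Standard errors are the log2 fold change divided by the root of the F statistic. The code was tested on simulated data. Members and gene lists were chosen with earlier results of these data known. Named list genes were called with a 2-fold change, at most 5 per list and comparison, or named for few counts; other factors, actins and defining markers were named after their values were seen. Exon lengths came from GENCODE M21. Alternatives used RLE scaling, other filters, DESeq2 1.42.0, fewer groups, a replicate block and each library left out. The result of 1 gene list is not reported here.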

Additional observations from a re-analysis of the deposited data

How the results depend on the processing

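Over 12 alternatives, Actg2 and Cnn1 in PD+LY against 4OHT, Actg2 and Des in PD+LY against cAMP, and Actn2 in 4OHT and PD+LY against cAMP kept a call with at least a 2-fold change. In 4OHT against cAMP, 1 of the 10 genes had an adjusted p under 0.05; there were 4 without a filter, 3 with only the 2 groups compared, 2 with the replicate block, and 1 to 3 without 1 library. Over all genes, 1280 in that comparison became 2186 without a filter, 2307 with only the 2 groups compared and 2373 with the replicate block, and 216 to 2314 without 1 library. With the 2-fold rule, 408 genes became 164 to 487 without 1 library. In PD+LY against 4OHT, 1107 genes with the 2-fold rule became 632 to 1176 without 1 library, and 3469 by adjusted p alone became 1198 to 4158. In PD+LY against cAMP, 3925 by adjusted p alone became 2351 to 4287. Of the 10 genes, 7 with the 2-fold rule became 4 to 7, and 9 by adjusted p alone became 7 to 9. The sign changed for Tpm1 in 4OHT against cAMP (-0.07 as reported, -0.20 to 0.07 without 1 library), for Myl9 there (-0.14, then -0.33 to 0.09) and for Actn2 in PD+LY against 4OHT (0.05, then -0.01 to 0.10), none of them called. In PD+LY against 4OHT, leaving out 1 library cost the calls of Tagln and Myl9 and the 2-fold call of Des, as given above. A lone library was assumed to vary like the other groups. The cause of these shifts was not tested. Replicate numbers are not stated to pair libraries, and same-numbered libraries deviated together weakly (r = 0.0718, 0.207 and 0.0586 between groups). Depth limits genes with few counts, such as Actc1, Mef2c, Myocd, Tie1, Cldn5 and Mustn1: 3 counts correspond to 0.146 to 0.2 CPM, and such floors cover counting error only.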
